A study of Mus musculus with 6 samples.

Results

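The mitochondrial ribosome is the organelle's own translation machine: its RNAs are made inside the mitochondrion, whereas all of its proteins are encoded in the nucleus, made in the cytosol and imported. It translates the few membrane subunits of the respiratory chain and ATP synthase that mitochondrial DNA still encodes. The large subunit joins amino acids, the small subunit reads the mRNA, and both carry counterparts of bacterial ribosomal proteins beside proteins found only in mitochondria. Heart muscle depends heavily on respiration, and in humans mutations in several of these genes cause cardiomyopathy.

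The genes described were those whose symbol starts with Mrpl or Mrps followed by a digit, on Affymetrix 3' arrays, each represented by the probe set of highest mean signal among probe sets that name that gene alone. This gave 76 genes, read by 156 probe sets, of 18193 genes that the arrays name. All 76 lay above the filter on low signal (log2 signal 5.90), so all were among the 12416 genes tested. Of these, 49 encode large subunit proteins and 26 small subunit proteins, with Mrps18a and Mrps30 counted in the large subunit where structures place them. Of the 3 relatives of bacterial S18, Mrps18c holds the place of the bacterial protein, so Mrps18a and Mrps18b are counted among proteins found only in mitochondria. The remaining gene, Mrps36, keeps its ribosomal name although its product is now assigned to the oxoglutarate dehydrogenase complex. Mrpl30 and Mrpl53 were read here only by probe sets that also name another gene and were not analysed.

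Hearts of C57BL/6 mouse embryos at E12.5 were compared, with 3 arrays labelled wildtype and 3 labelled Rhau KO. Rhau is an older name of Dhx36, a helicase that unwinds G-quadruplexes in RNA and DNA. The labels give no other allele or agent, and neither the deleted part of the gene nor a promoter or cell type that would drive the deletion. Each group is described as coming from 3 dissected hearts.

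Several facts of the arrays bear on every direction below. Dhx36 itself was higher under the Rhau KO label, at 10.10, 10.48 and 10.23 against 8.99, 8.88 and 8.71 under the wildtype label (log2 signal, replicates 1 to 3), so a group is named here only by the label it carries. Whether labels were exchanged, or the Dhx36 probe set reads a part of the gene that was not deleted, was not tested. Exchanged labels would turn every direction given below, the 8 lower and 3 higher genes included. With each of 3 Y-linked genes scaled to 100 on its strongest array (linear signal), their mean came to 1.23, 2.04 and 39.3 in the wildtype arrays and to 59.6, 82.8 and 100 in the Rhau KO arrays. Xist and Y-linked genes were both well detected on 3 arrays, namely wildtype replicate 3 with Rhau KO replicates 1 and 2, although the series text reads as single hearts. All 12 cardiomyocyte markers were measured, at a mean log2 signal of 13.24 to 15.08, and 3 of them were lower and 0 higher under the Rhau KO label. Their median difference was -0.12 with 9 of 12 below 0, and their summed linear signal ran from 309478 to 322377 in wildtype and from 270224 to 310181 in Rhau KO arrays. Of 14 tested erythroid markers 11 were lower and 0 higher. All 14 differences were below 0, with a median of -1.03, and 7 reached 2-fold. Their summed linear signal ran from 96886 to 104292 under the wildtype label and from 73118 to 91646 under the Rhau KO label. Of 19 endothelial markers 7 were higher and 0 lower, with sums of 20894 to 22080 and 23933 to 25348. Of 12 tested macrophage and leukocyte markers 2 were higher and 0 lower. The sums over all 14 on the arrays, those below the filter included, were 3444 to 3734 and 4600 to 5523. Of 4 tested liver, lung and gut markers 1 was lower and 0 higher. Sums over all 9 on the arrays, likewise including those below the filter, were 1274 to 1379 and 908 to 1143. The shares called in the test below were 25% of cardiomyocyte, 78.6% of erythroid and 36.8% of endothelial markers. They were 16.7% of macrophage and leukocyte and 25% of liver, lung and gut markers. Among all genes tested 19.0% were called, 10.8% lower and 8.20% higher. No marker of these lists was at 0 on any array. The part of these marker differences and of sex in the results below was not tested beyond the refits given with them, and in whole hearts fewer cells of a type and less RNA per cell cannot be told apart.

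Before the values, and by a search added after the data were seen, the promoters of the genes that passed the test are shown where they hold a motif more frequent among these genes than among all genes tested. In other studies, many nuclear genes for mitochondrial proteins are read through sites for ETS factors such as GABP, for YY1 and for NRF1. The RefSeq promoter table (build GRCm38.p6) covers 250 bases before to 50 after each annotated start, and it held an entry for 67 of the 76 genes. The letters CCGGAAG of an ETS site, searched on both strands, occurred in 25 of the 67 (37.3%), in 19.5% of 9987 tested genes with an entry and in 9.93% of all 27025 genes with an entry. The letters AAGATGGCG of a YY1 site, likewise on both strands, occurred in 8 (11.9%), in 3.47% of the tested genes and in 1.64% of all. No ETS match overlapped a YY1 match in these 67 genes. A strict 10-base palindrome of NRF1 occurred in 3 (4.48%, against 2.32% of tested and 1.07% of all genes), those of Mrpl32, Mrpl39 and Mrpl9, none of which passed the test. A pattern of 4 runs of GGG separated by 1 to 7 bases, which can form a G-quadruplex, was searched on both strands and occurred in 11 of the 67 (16.4%), in 31.7% of the tested genes and in 20.4% of all. The E-box CACGTG occurred in 5 (7.46%, against 11.7% of tested genes), the SP1 letters GGGCGG in 34 (50.7%, against 68.9%) and the ERRA letters TCAAGGTCA in 0 (against 0.330%), again on both strands. A match describes letters in a window and is not a shown binding site.

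Of the 9 genes that passed the test and had an entry, 5 held an ETS or YY1 match, which is written in capitals. Each is written 5′ to 3′ along the gene.
Mrps27, chr13:99344536-99344835, plus strand: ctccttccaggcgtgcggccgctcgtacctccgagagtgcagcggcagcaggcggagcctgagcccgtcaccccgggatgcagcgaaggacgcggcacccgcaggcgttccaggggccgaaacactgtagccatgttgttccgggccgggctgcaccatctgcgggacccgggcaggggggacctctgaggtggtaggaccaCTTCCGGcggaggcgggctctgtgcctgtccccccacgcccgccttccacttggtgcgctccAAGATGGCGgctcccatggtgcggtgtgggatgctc
Mrps18a, chr17:46110754-46111053, plus strand: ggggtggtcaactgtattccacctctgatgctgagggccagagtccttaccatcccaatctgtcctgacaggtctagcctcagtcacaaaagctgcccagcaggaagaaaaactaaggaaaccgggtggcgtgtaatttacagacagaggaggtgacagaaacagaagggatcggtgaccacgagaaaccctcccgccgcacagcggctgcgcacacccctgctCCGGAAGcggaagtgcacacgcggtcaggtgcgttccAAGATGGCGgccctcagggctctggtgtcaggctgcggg
Mrpl3, chr9:105053018-105053317, plus strand: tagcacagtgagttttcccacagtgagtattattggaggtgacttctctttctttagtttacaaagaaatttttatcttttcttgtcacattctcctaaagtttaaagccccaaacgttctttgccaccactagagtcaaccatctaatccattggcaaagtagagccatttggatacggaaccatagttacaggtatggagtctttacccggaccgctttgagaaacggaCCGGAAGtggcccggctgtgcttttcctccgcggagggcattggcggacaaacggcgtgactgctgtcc
Mrpl35, chr6:71823735-71824034, minus strand: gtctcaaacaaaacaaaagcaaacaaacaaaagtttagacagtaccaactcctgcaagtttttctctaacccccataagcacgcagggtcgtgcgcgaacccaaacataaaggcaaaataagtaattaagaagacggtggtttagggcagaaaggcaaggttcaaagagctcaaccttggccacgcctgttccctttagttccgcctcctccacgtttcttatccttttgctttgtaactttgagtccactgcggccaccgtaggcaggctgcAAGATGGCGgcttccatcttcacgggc
Mrpl36, chr13:73330759-73331058, plus strand: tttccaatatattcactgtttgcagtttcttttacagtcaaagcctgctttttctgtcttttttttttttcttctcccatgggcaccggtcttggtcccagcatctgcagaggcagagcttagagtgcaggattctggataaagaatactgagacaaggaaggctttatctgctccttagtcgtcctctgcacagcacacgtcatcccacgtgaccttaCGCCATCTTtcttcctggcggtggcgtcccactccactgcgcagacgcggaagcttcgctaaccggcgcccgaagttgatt
The YY1 letters began 15, 12 and 24 bases after the annotated start in Mrps27, Mrps18a and Mrpl35, and 31 bases before it, on the opposite strand, in Mrpl36. The ETS letters began 48, 26 and 19 bases before the start in Mrps27, Mrps18a and Mrpl3, on the opposite strand in Mrps27. Among the 58 genes with an entry that did not pass, 22 held the ETS letters (37.9%) and 4 the YY1 letters (6.90%). Of those that passed, 3 of 7 lower and 0 of 2 higher genes held the ETS letters. The YY1 letters occurred in 3 of 7 lower and 1 of 2 higher genes. These genes are too few to compare for either motif.

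The transcripts of mitochondrial ribosomal proteins were largely alike under both labels, and the differences that passed the test were small. With limma fitted over all 12416 genes and an adjusted p under 0.05, 8 of the 76 genes fell and 3 rose under the Rhau KO label, and 65 did not pass. Among all genes tested 19.0% were called, 10.8% lower and 8.20% higher, so the 14.5% called here were no larger a share than in the background. Among the 6050 tested genes whose mean signal lay within the range of these 76, from 9.16 to 12.99, the share called was 25.9%. Folds ran from 1.14 to 1.27 among the genes that fell and from 1.13 to 1.35 among those that rose, and 0 of the 76 reached 2-fold, against 161 of the 12416.

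The 95% interval of the difference lay within 1.25-fold in both directions for 62 of the 76 genes (81.6%) and within 1.5-fold for 73, bounds chosen after the data were seen. The share within 1.25-fold was 36.1% over all genes tested and 57.9% over those in the same signal range. The median residual SD between arrays of one label was 0.060 for these genes on the log2 scale, 0.082 for genes in the same signal range and 0.116 for all genes tested. For the probe set used, the intervals therefore bound most of these differences closely, whether or not the gene passed. They cover the spread between these arrays and not the choice of probe set, sex or cell make-up. Other probe sets of a gene, given below, do not always lie within them.

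**Figure D1:**
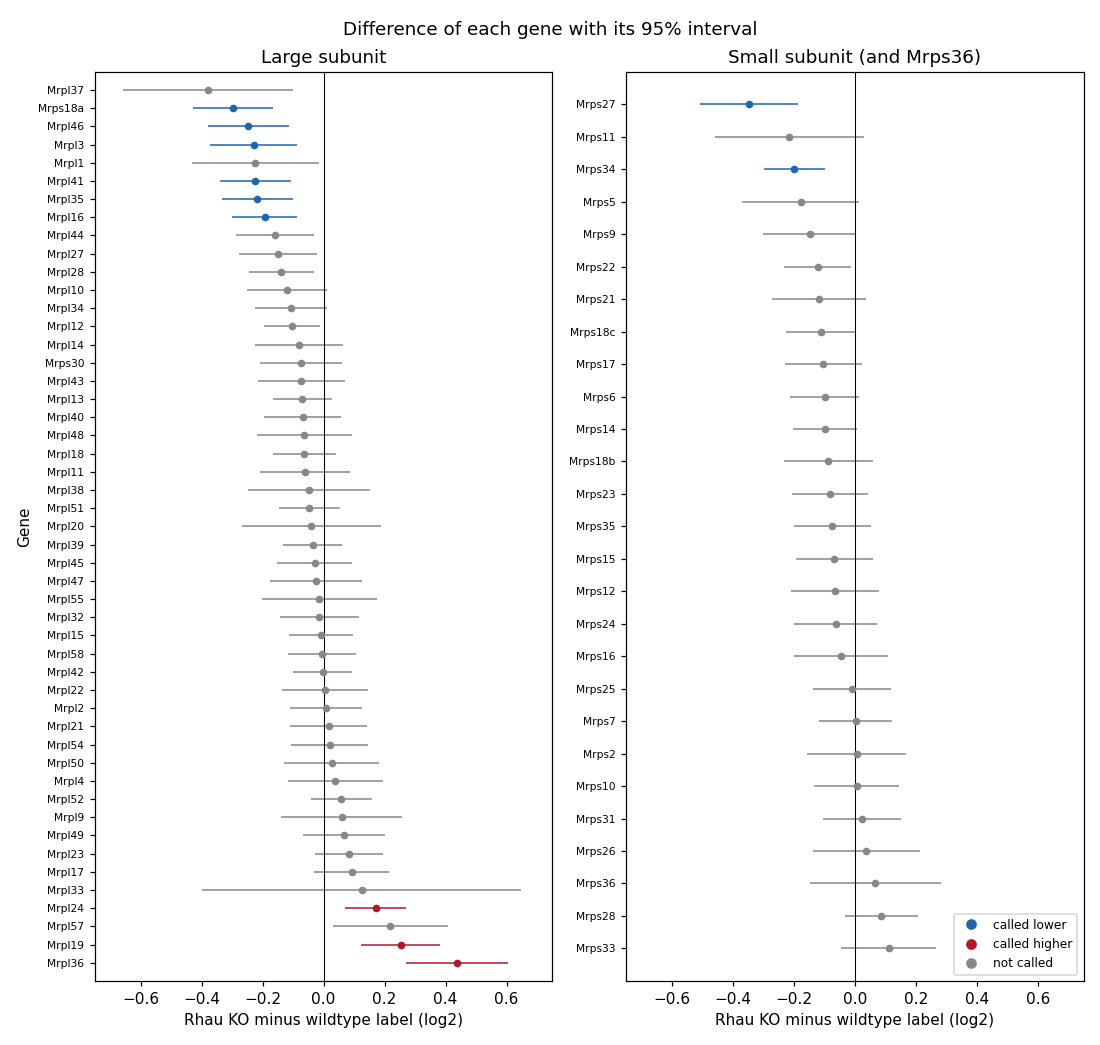
Difference of each of the 76 genes (Rhau KO label minus wildtype label, log2) with its 95% interval from the fit over all genes, large subunit on the left and small subunit with Mrps36 on the right, ordered by difference. Blue marks the 8 genes called lower, red the 3 called higher and grey the 65 not called; most points lie a little to the left of 0, and all lie between -0.38 and 0.44.

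The values leaned to one side by a small amount. The difference was below 0 for 52 of the 76 genes, where 48.1% of all genes tested were below 0, and the median was -0.06 against 0.01 over all genes tested. The mean log2 signal of the 76 genes was 11.18, 11.16 and 11.16 in replicates 1 to 3 labelled wildtype and 11.12, 11.10 and 11.13 in those labelled Rhau KO, a difference of -0.05. The values of the groups did not overlap, and on the Rhau KO arrays 51, 57 and 47 of the 76 genes lay below their wildtype-label mean. Genes of a list are not replicates, so this shift carries no p-value. Centring each array on its median, which lowers the median of all genes from 0.01 to -0.06, put the median of these genes at -0.13 and changed the split of calls from 8 lower and 3 higher to 15 lower and 1 higher. Over all genes tested the same centring moved the split from 1336 lower and 1018 higher to 1846 lower and 532 higher. Other choices moved both medians. After quantile normalization they were -0.0375 for these genes and -0.00315 for all genes tested. With all probe sets of a gene averaged they were -0.0351 and 0.0224, and over every probe set -0.0352 and 0.0273.

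**Figure D2:**
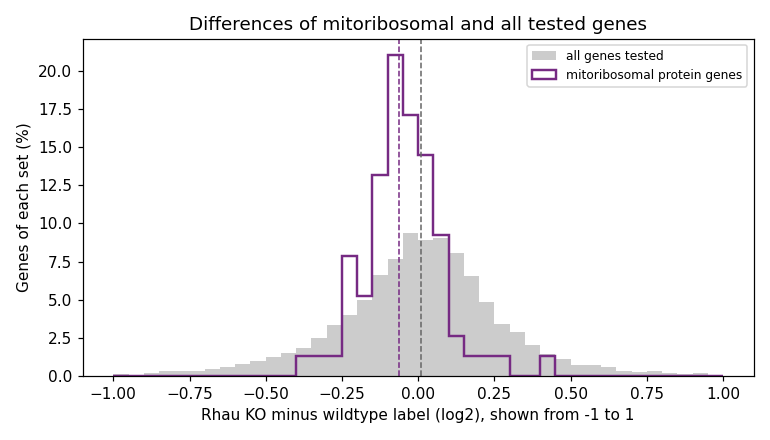
Share of genes (%) by difference in steps of 0.05 on the log2 scale, for all 12416 genes tested (grey fill) and the 76 mitoribosomal protein genes (purple outline), with dashed lines at the medians of 0.01 and -0.06; genes beyond -1 or 1 are not drawn. The purple outline is narrower than the grey fill and sits slightly to its left.

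In the large subunit 6 of 49 genes fell, 3 rose and 40 did not pass, with a median of -0.04. This was 18.4% called, against 19.0% of all genes tested. Mrps18a, one of 3 mammalian relatives of the bacterial protein S18, fell from 11.30, 11.33 and 11.31 in the arrays labelled wildtype to 10.96, 11.13 and 10.96 in those labelled Rhau KO. All Rhau KO values lay below all wildtype values, and the difference of -0.30 (SE 0.059, limma adjusted p = 0.00622, n = 3 each) was a 1.23-fold lower level. Its relatives in the small subunit did not pass: Mrps18b was at -0.09 (95% interval -0.23 to 0.06) and Mrps18c at -0.11 (-0.22 to 0.00234), and the differences between the 3 were not tested. The call for Mrps18a was kept in 6 of 6 fits that left out 1 array.

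Mrpl46, a protein without a bacterial counterpart, was at 10.76, 10.79 and 10.73 under the wildtype label and at 10.47, 10.60 and 10.46 under the Rhau KO label. The groups did not overlap, and the gene fell by 0.25 on the log2 scale (SE 0.060, limma adjusted p = 0.0168). Its call was kept in 3 of 6 fits that left out 1 array, at differences of -0.22 or larger in size.

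Mrpl3, the counterpart of bacterial L3 near the centre that joins amino acids, causes cardiomyopathy in humans when mutated. Its signal was 11.48, 11.36 and 11.47 in wildtype arrays, against 11.19, 11.11 and 11.32 in Rhau KO arrays, each of which lay below every wildtype value. The difference was -0.23 (SE 0.065, limma adjusted p = 0.0323), and the call was kept in only 2 of 6 fits that left out 1 array. A second probe set pointed the same way at -0.19, while the dimmer ones, at mean signals of 7.60 and 6.74, pointed up at 0.37 and 0.43, none of these with a call. Averaging all 4 probe sets turned the gene to 0.09 (limma adjusted p = 0.434).

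Mrpl41, which in human cells has been reported to bind BCL2 and p53, was at 11.94, 11.87 and 11.91 under the wildtype label and at 11.61, 11.69 and 11.75 under the Rhau KO label. The groups were apart on every array, with a difference of -0.22 (SE 0.052, limma adjusted p = 0.0141). The second Mrpl41 probe set, nearly as bright at 11.49, differed by only -0.04, so the call depends on the probe set chosen.

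Mrpl35 and Mrpl16, counterparts of bacterial L35 and L16, completed the large subunit genes that fell. Mrpl35 was at 11.65, 11.64 and 11.65 under the wildtype label and at 11.51, 11.36 and 11.42 under the Rhau KO label (-0.22, SE 0.053, limma adjusted p = 0.0168), and its other probe sets were at -0.20 and -0.39 without a call. Mrpl16 was at 11.85, 11.75 and 11.83 and at 11.63, 11.60 and 11.62 (-0.19, SE 0.049, limma adjusted p = 0.0191). Neither gene's groups overlapped, and calls were kept in 3 of 6 fits without 1 array for Mrpl35 and in 4 of 6 for Mrpl16.

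The genes that rose were Mrpl36, Mrpl19 and Mrpl24, all counterparts of bacterial proteins of the large subunit. Mrpl36, the counterpart of bacterial L36, was at 10.21, 10.43 and 10.48 under the wildtype label and at 10.75, 10.87 and 10.82 under the Rhau KO label. This difference of 0.44 (SE 0.076, limma adjusted p = 0.00279) was a 1.35-fold higher level, the largest in size among the 76 genes, and the call was kept in 6 of 6 fits without 1 array. Only 1 probe set measured the gene. Adding each array's Y-linked signal to the fit gave 0.22, and adding the erythroid signal gave 0.69, without a call in either.

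Mrpl19, whose bacterial counterpart sits at the contact between the subunits, rose from 10.76, 10.72 and 10.82 to 11.02, 11.08 and 10.95. The groups were apart, by 0.25 (SE 0.058, limma adjusted p = 0.0135). A second bright probe set was at 0.13 and a dimmer one at -0.25, both without a call, and the mean of all 4 probe sets, of which the last lay below the filter, stood at -0.52 (limma adjusted p = 0.124). Mrpl24 was at 11.98, 11.95 and 11.92 under the wildtype label and at 12.11, 12.11 and 12.14 under the Rhau KO label, with groups apart by 0.17 (SE 0.045, limma adjusted p = 0.0238). Its call was kept in 1 of 6 fits that left out 1 array.

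**Figure D3:**
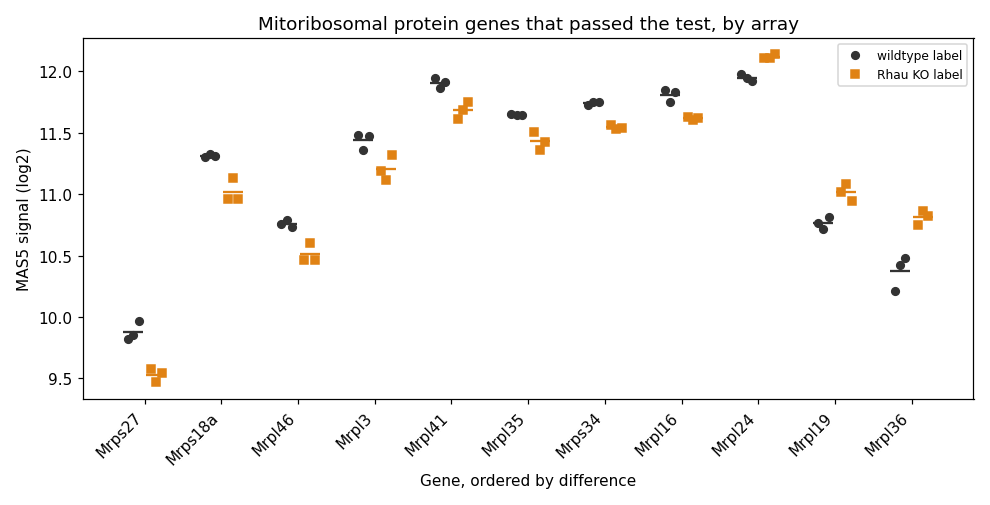
MAS5 signal (log2) of the 11 genes that passed the test on each of the 6 arrays, ordered by difference, with circles for the wildtype label, squares for the Rhau KO label and a short line at each mean of 3. The 2 labels do not overlap for any of these genes, and the distance between the means is between 0.17 and 0.44.

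In the small subunit 2 of 26 genes fell, 0 rose and 24 did not pass, with a median of -0.08. This was 7.69% called, against 19.0% of all genes tested. At unadjusted limma p under 0.05, 3 of the 26 passed, against 19 of the 76 genes and 4049 of the 12416. The 2 genes that fell encode proteins found only in mitochondria. Mrps27, an RNA-binding protein of the pentatricopeptide repeat family, was at 9.82, 9.85 and 9.96 under the wildtype label and at 9.58, 9.47 and 9.54 under the Rhau KO label. The values lay apart, and the difference of -0.35 (SE 0.073, limma adjusted p = 0.00799) was a 1.27-fold lower level, the largest decrease that passed. The call was kept in 6 of 6 fits without 1 array. Mrps34, needed for a stable small subunit and linked to heart enlargement in mutant mice, fell from 11.73, 11.75 and 11.75 to 11.56, 11.53 and 11.54 (-0.20, SE 0.046, limma adjusted p = 0.0132), again without overlap, and kept its call in 5 of 6 such fits.

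None of the 16 small subunit counterparts of bacterial proteins passed, at differences from -0.21 to 0.09, and at unadjusted p under 0.05 their number was also 0. Among all genes tested 19.0% were called, and 4049 of 12416 had an unadjusted limma p under 0.05. Mrps12, part of the decoding centre, was at -0.06 (95% interval -0.21 to 0.08), and Mrps16 at -0.04 (-0.20 to 0.11). Of the 29 large subunit counterparts of bacterial proteins 3 fell and 3 rose (20.7% called). Of the proteins found only in mitochondria 3 of 20 fell in the large (15%) and 2 of 10 in the small subunit (20%), and 0 rose. Whether these shares differ between subunits or between the kinds of protein was not tested.

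Genes with a known role in the heart or in the ribosome's function that did not pass were bounded as follows. Mrpl44, an RNase III-like protein whose mutations cause infantile cardiomyopathy in humans, was at -0.16 (95% interval -0.29 to -0.03), and its other 3 probe sets were also below 0. Mrps22, likewise linked to human cardiomyopathy, was at -0.12 (-0.23 to -0.01), and Mrpl12, the stalk protein that binds translation factors and the mitochondrial RNA polymerase, at -0.10 (-0.20 to -0.01). The groups of these 3 genes did not overlap, which held for 37.1% of all genes tested. All 3 were called lower when arrays were centred on their medians, at -0.23, -0.19 and -0.17 (limma adjusted p = 0.0223, 0.0355 and 0.0369). That centring lowered the difference of every gene by the same amount. Over all genes tested it moved the calls from 1336 lower and 1018 higher to 1846 lower and 532 higher. Mrpl42 and Mrpl39, the 2 brightest probe sets at 12.99 and 12.83, were at -0.00369 and -0.04, and Mrpl1 and Mrpl38, the 2 dimmest at 9.16 and 9.68, at -0.22 and -0.05. Mrps36, the dehydrogenase component, was at 0.07 (-0.15 to 0.28), with wildtype values from 11.34 to 11.80.

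In all, the groups did not overlap for 25 of the 76 genes (32.9%), 19 lower and 6 higher, where 37.1% of all genes tested did not overlap, 18.7% lower and 18.4% higher, and 44.7% of those in the same signal range. Of these 25, 14 did not pass. The largest of them was Mrpl37, named after its values were seen, with wildtype values of 10.30, 9.73 and 9.84 and Rhau KO values of 9.55, 9.65 and 9.53. Wildtype replicate 1 stood above the other 5 arrays, and the difference of -0.38 (SE 0.126) had a limma adjusted p of 0.0590. Mrpl33, also named after its values were seen, varied most, from 10.28 to 11.10 under the wildtype label and from 10.47 to 11.40 under the Rhau KO label, so its difference of 0.12 has a 95% interval from -0.40 to 0.65.

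Other probe sets of the same genes give a check on the choice of 1 per gene. Besides the 76 used, 61 probe sets of 34 genes lay above the filter, and 34 of the 61 pointed the same way as the gene's brightest probe set. When every probe set was tested on its own, 1 of the 61 passed, a second Mrps23 probe set at -0.31 (limma adjusted p = 0.0120) whose brightest probe set was at -0.08. That gene is named after its values were seen. Among the 11 genes that passed, 4 had other probe sets above the filter, and 5 of these 8 probe sets pointed the same way.

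**Figure D4:**
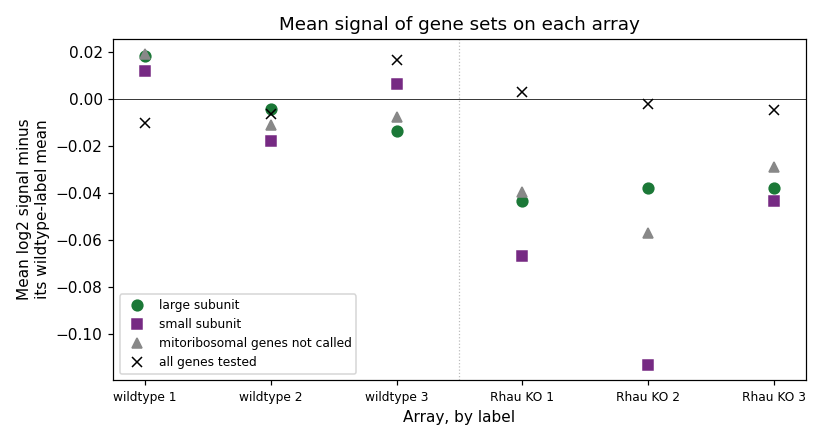
Mean log2 signal of the 49 large subunit genes, the 26 small subunit genes, the 65 genes not called and all 12416 genes tested on each array, each as a distance from its own mean over the wildtype-label arrays. Large and small subunit means lie below 0 on all 3 Rhau KO arrays, while the mean of all genes stays within 0.02 of 0.

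Genes that act with the mitochondrial ribosome had calls in both directions, in shares given beside the 19.0% called among all genes tested. Of 31 assembly factors 2 rose and 2 fell (12.9% called, below that share). Mtg2, a GTPase of large subunit assembly, rose from 8.66, 8.60 and 8.68 to 9.23, 9.27 and 9.24 (0.60, SE 0.082, limma adjusted p = 6.90e-04). Tfb1m, the methyltransferase that modifies the small subunit's RNA, fell from 9.84, 9.62 and 9.91 to 9.21, 9.30 and 9.08 (-0.59, SE 0.096). Noa1, a GTPase needed for the small subunit, rose by 0.46, and Afg3l2, a subunit of the protease that processes Mrpl32, fell by 0.43 on the log2 scale, while Mrpl32 itself was at -0.01 (95% interval -0.14 to 0.12). Groups of these 4 factors did not overlap, and their calls were kept in 6 of 6 fits without 1 array. For 3 of them the call depends on the probe set: with only probe sets whose name carries no mark for shared transcripts, Mtg2 was at 0.20, Tfb1m at -0.10 and Afg3l2 at -0.07 (limma adjusted p = 0.437, 0.742 and 0.630), and averaged probe sets gave no call for these 3 either. The median of the list was -0.00785.

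Of 14 translation factors 2 rose and 2 fell (28.6% called, against 19.0% of all genes tested), with a median of -0.10. Guf1, an elongation factor, was at 0.39 and Oxa1l, the membrane insertase at the ribosome's exit, at 0.31, while Tufm, the factor that delivers aminoacyl-tRNA, was at -0.24 and Mtres1, a factor that rescues stalled ribosomes, at -0.20 (limma adjusted p = 0.0228 to 0.0393). These calls were kept in only 0 to 2 of 6 fits that left out 1 array, and the mean of its probe sets turned Tufm to 0.17. Of 4 tested mitoribosomal proteins that carry other names 0 passed, with Ptcd3 at 0.19 and Chchd1 at 0.08. At unadjusted limma p under 0.05 their number was also 0, against 4049 of the 12416 genes tested. Of 21 aminoacyl-tRNA synthetases 1 rose (4.76% called), Ears2 at 0.39. Of 21 genes of mitochondrial transcription and RNA processing 2 rose (9.52% called). Both belong to the RNase P complex that cuts tRNAs from mitochondrial transcripts: Trmt10c at 0.28 and Prorp at 1.17. The call for Trmt10c was kept in 1 of 6 fits without 1 array, and its averaged probe sets gave 0.27 (limma adjusted p = 0.389). Prorp was at 5.23 in replicate 3 labelled wildtype, below the filter level, and without that array it stood at 0.65 with no call.

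A list of import, chaperone, protease and porin genes with citrate synthase had 8 members that fell and 1 that rose of 23, with a median of -0.10. This was 39.1% called, against 19.0% of all genes tested. Those that fell were 4 genes of the import machinery (Tomm40, Timm10, Timm17a and Timm44), the 3 porins Vdac1, Vdac2 and Vdac3, which pass metabolites through the outer membrane, and the citric acid cycle enzyme citrate synthase, some of them named after their values were seen. Tomm40, the import channel of the outer membrane, fell by 0.34, Timm10 by 0.25, Vdac2 by 0.22 and citrate synthase, Cs, by 0.22 on the log2 scale. Regulators of mitochondrial gene expression had 5 that rose and 1 that fell of 13 (46.2% called), with a median of 0.16. The coactivator Ppargc1a rose from 10.42, 10.39 and 10.32 to 11.24, 10.91 and 11.04, while its relative Ppargc1b fell from 10.75, 10.76 and 10.69 to 10.45, 10.24 and 10.51, without overlap in either case. Gabpb2, a partner of the ETS factor Gabpa, was called higher at 0.36 and Max at 0.33. These calls were kept in 3 of 6 and 1 of 6 fits without 1 array, Max had none after quantile normalization or median centring, and Gabpb2 came to 0.16 (limma adjusted p = 0.609) with its probe sets averaged. Gabpa, Yy1 and Nrf1 are given because their motifs were searched, outside the rule for named genes: Gabpa was at 0.30 with overlapping groups and a call that was kept in 2 of 6 fits without 1 array and came to -0.03, without a call, as a mean of its probe sets, Yy1 was at -0.05 and Nrf1 at 0.33, both without a call.

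The cytosolic ribosomal proteins, which share the function but not the organelle, had 3 genes that rose and 0 that fell of 47, with a median of 0.00593. This was 6.38% called, against 19.0% of all genes tested. The 3 were Rpl12 at 0.40, Rps4l at 0.21 and Rpl11 at 0.17. Rpl12 kept its call in 6 of 6 fits without 1 array, whereas Rps4l and Rpl11 kept theirs in 2 of 6 and had none after median centring (limma adjusted p = 0.183 and 0.252). The difference of the cytosolic from the mitochondrial set was not tested. Most cytosolic genes are very bright on these arrays, with a median signal of 14.34, and saturation of their probes was not examined.

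**Figure D5:**
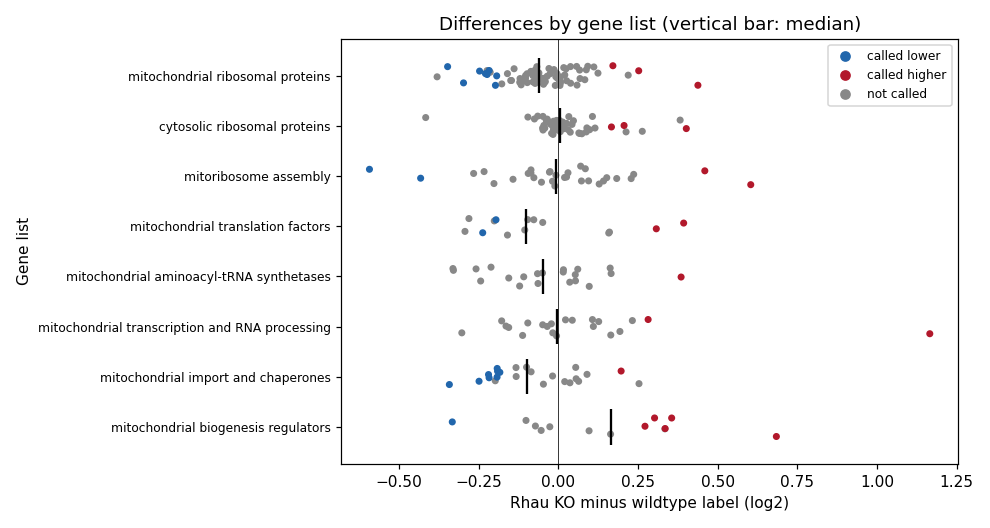
Difference of each gene (Rhau KO label minus wildtype label, log2) in the mitochondrial ribosomal protein set and 7 related lists, with a black bar at each list's median and colours for genes called lower (blue), called higher (red) and not called (grey). The list named import and chaperones also holds proteases, porins and citrate synthase. Medians lie between -0.10 for that list and for translation factors and 0.16 for the regulators.

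The counts rest on few arrays. Without the 3 arrays that carry both Xist and Y-linked signal, a lone Rhau KO array was left, assumed to vary like the others. Its Xist signal was 5.10, against 13.85 and 13.82 (log2) on the wildtype arrays left, and its Y-linked signal was the highest. Label and sex cannot be told apart there. The median difference of the 76 genes was -0.0407, against 0.0210 over all genes tested. With those 3 arrays alone, a lone wildtype array among them, the medians were -0.0515 and -0.00599. With the Y-linked signal or the erythroid signal of each array as a covariate, 0 of the 76 passed (limma), while 1.43% and 0.217% of all genes did, and 52 genes below 0 became 47 and 46. Neither signal overlapped between the labels. The erythroid mean (log2) was 10.47 to 10.74 in wildtype and 9.44 to 9.91 in Rhau KO arrays. These fits therefore cannot set either signal apart from the label.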

How the data were processed

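Biotin-labelled RNA from embryonic hearts was read on 3' expression arrays, per the labels' protocols. Values deposited by the authors are log2 MAS5 signals, 1 per probe set and array; the submitters' processing notes name MAS5 without a version. On the linear scale, trimming 2% at each end gave a mean of 499.8 for all 6 arrays, a common scale, and log2 values were used as deposited. Detection calls were not used. All 6 columns were matched to samples by title.

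Of 45101 probe sets 64 controls were left out. Probe sets naming 1 gene in the platform annotation were used, the brightest for each gene, and genes in the lowest 40% of signal were left out, leaving 12416. All 76 symbols matched RefSeq through Entrez identifiers. Labels were compared with limma 3.58.1 in R 4.3.3 (eBayes with trend), Benjamini-Hochberg adjusted over all 12416 genes, two-sided, threshold 0.05. Tables were handled with Python 3.11.15. Whether replicates are separate litters is not given, so p-values measure the spread between these arrays, whose small number limits precision. In simulated arrays of the same 12416 genes, 67 genes were changed by 1.5-fold, 67 by 2-fold and 66 by 4-fold. Of these 58.2%, 77.6% and 100% were recovered. So few changed genes, where 19.0% were called in the data, make the adjusted threshold stricter than in the data. The changed genes were drawn from all genes tested, whose median residual SD was 0.116 against 0.060 for the 76 genes. Smaller changes were not simulated.

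The gene set, lists, tests and alternatives were chosen with earlier results of these data known. Named genes are Dhx36, up to 12 largest called decreases and increases without overlap, members fixed for their role, the 2 brightest and 2 dimmest, and up to 4 called genes (otherwise up to 2) of each related list. Genes of other cell types are given as marker lists. Same-numbered replicates did not deviate together (Pearson r of -0.0118, 0.0446 and 0.0131 across genes), so the numbers were not used as pairs.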

Additional observations from a re-analysis of the deposited data

How the results depend on the processing

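With 8 genes called lower, 3 higher and a median of -0.06 as reported, offsets of 1 and 64, no filter, the stricter filter, array weights and the replicate block (8 and 3, median -0.06) kept both counts. Quantile normalization kept them at a median of -0.0375. Median centring gave 15 lower and 1 higher (median -0.13), where 19.2% of all genes were called. The mean of all probe sets gave 5 lower and 2 higher (median -0.0351), with 12.4% of all genes called. Every probe set gave 9 lower and 3 higher of 137 probe sets (median -0.0352), with 14.6% of all probe sets called. Unmarked probe sets gave 5 lower and 2 higher of the 60 genes tested there, with 17.9% of all genes called. Without trend, eBayes gave 2 lower and 1 higher, with 12.0% of all genes called. Leaving out 1 array gave 3 to 9 lower, 1 to 3 higher and medians from -0.0762 to -0.0405, with 12.1% to 16.2% of all genes called. The counts were 3 lower without replicate 1 labelled wildtype, 5 lower without replicate 3 and 1 higher without replicate 2 of that label. The Y-linked covariate gave 0 and 0 (median -0.0411) and the erythroid covariate 0 and 0 (median -0.0320). The median was -0.0407 in the arrays without mixed sex signal, where label and sex cannot be told apart, and -0.0515 in the mixed arrays alone. The cause was not tested. The leave-out fits had fewer arrays. The covariate fits had fewer residual degrees of freedom, and covariates whose values did not overlap between the labels. The replicate block had fewer residual degrees of freedom still. What each of these features does to the counts was not tested. For single genes, averaging probe sets turned Mrpl3 to 0.0920, Mrpl19 to -0.52, Tufm to 0.17 and Gabpa to -0.0284, unmarked probe sets turned Tufm to 0.18, and the erythroid covariate turned Prorp to -0.73. For the 50 named genes, of 1041 refits 252 lost a call on the same side, 5 gained one and 6 changed side with a call in either fit. The other 778 did none of these, and genes without a call in either fit are counted there whichever side they took. Folds under 1.5 were not simulated, so how many such changes 3 arrays per label miss is not known.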
